A study of Homo sapiens with 4 samples.

Results

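The genes described here encode collagen chains, laminin chains and 9 other proteins of the extracellular matrix, measured in Huh7 cells, a human liver cancer line. They were chosen by name, as every gene called COL or LAM with a chain number plus FN1, VTN, THBS1, SPP1, TNC, NID1, NID2, HSPG2 and AGRN. The table lists 65 such genes, and the 47 with 10 or more counts in 2 or more libraries were compared, among 19210 compared features of 56303. They comprised 30 of 44 collagen chains, 9 of 12 laminin chains and 8 of the 9 other genes. The study had 4 libraries with 1 per group: input RNA and an RBM39 immunoprecipitate (IP) of cells with a control hairpin (shControl), and both of cells with a hairpin against RBM39, a splicing factor (shRBM39). All came from the same line with no stated drug treatment, the RBM39 hairpin was brought in on a plasmid by transfection, and an IP with a control antibody was not used here.

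Matrix proteins are secreted through the endoplasmic reticulum. Collagens are trimers of chains with long triple-helical stretches: some build fibrils, and collagen IV builds the sheet of the basement membrane. Laminins are cross-shaped trimers of 1 alpha, 1 beta and 1 gamma chain that integrins bind, and nidogens, perlecan (HSPG2) and agrin tie them to collagen IV and to the cell surface. Liver cells are known for making the plasma forms of fibronectin (FN1) and vitronectin (VTN), while the fibrous collagens of a scarred liver come mostly from stellate cells and fibroblasts.

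Values of the 4 libraries are given below in one order, shControl input and IP followed by shRBM39 input and IP. Total counts were 20858382, 41387762, 22249581 and 45812488. The 47 genes held 0.281% (0.279 to 0.284, Clopper-Pearson 95%), 0.231% (0.229 to 0.232), 0.308% (0.306 to 0.310) and 0.206% (0.205 to 0.207) of them. All 12 hepatocyte markers were compared, with summed levels of 5760 to 14800 CPM (counts scaled to the size of the library). Of 12 stellate cell and fibroblast markers 6 were compared, with summed levels of 17.9 to 24.8 CPM, and DCN, POSTN and FAP had 0 counts in every library. Of 8 endothelial cell markers 1 was compared, PECAM1, with 130, 168, 187 and 203 counts, and the list summed to 4.14 to 9.06 CPM. KDR, TEK and EMCN of that list and HBB of blood cells were at 0 in every library. The blood cell list summed to 168 to 412 CPM, of which LYZ alone gave 159 to 396. RBM39 itself stood at 404, 1040, 370 and 2220 CPM, with a log2 ratio between the inputs of -0.13 (-0.17 to -0.08), so that shRBM39 below names a library label and not a shown loss of the transcript.

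Levels are given as CPM of counts scaled by TMM, a factor that sets most features equal between libraries, and ratios as log2 after adding 0.5 to each count. A gene is called higher or lower when the ratio was at least 2-fold and its 95% counting interval excluded equality. With 1 library per group the intervals cover counting error only, no p-value is given for a pair of libraries, and spread between cultures was not measured. Between bulk libraries, fewer cells that make a transcript and less of it per cell cannot be told apart. Some genes passed the count minimum only through one kind of library: COL4A4 and COL8A2 through shControl, COL10A1 through the inputs, and LAMA2 and COL22A1 through the IPs, which hold more counts. The choice therefore favours a difference in the first 3, and their calls support nothing. COL17A1, with 6, 12, 11 and 4 counts, passed only through the shControl IP and the shRBM39 input. That favours a low shRBM39 IP over its input and a fall of that ratio between the cultures, so these calls support nothing either. Just inside the minimum lay COL4A4, with 13, 11, 2 and 7 counts. Just outside lay COL4A3 with 7, 8, 1 and 7 counts and COL19A1 with 9, 4, 2 and 3.

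**Figure D1:**
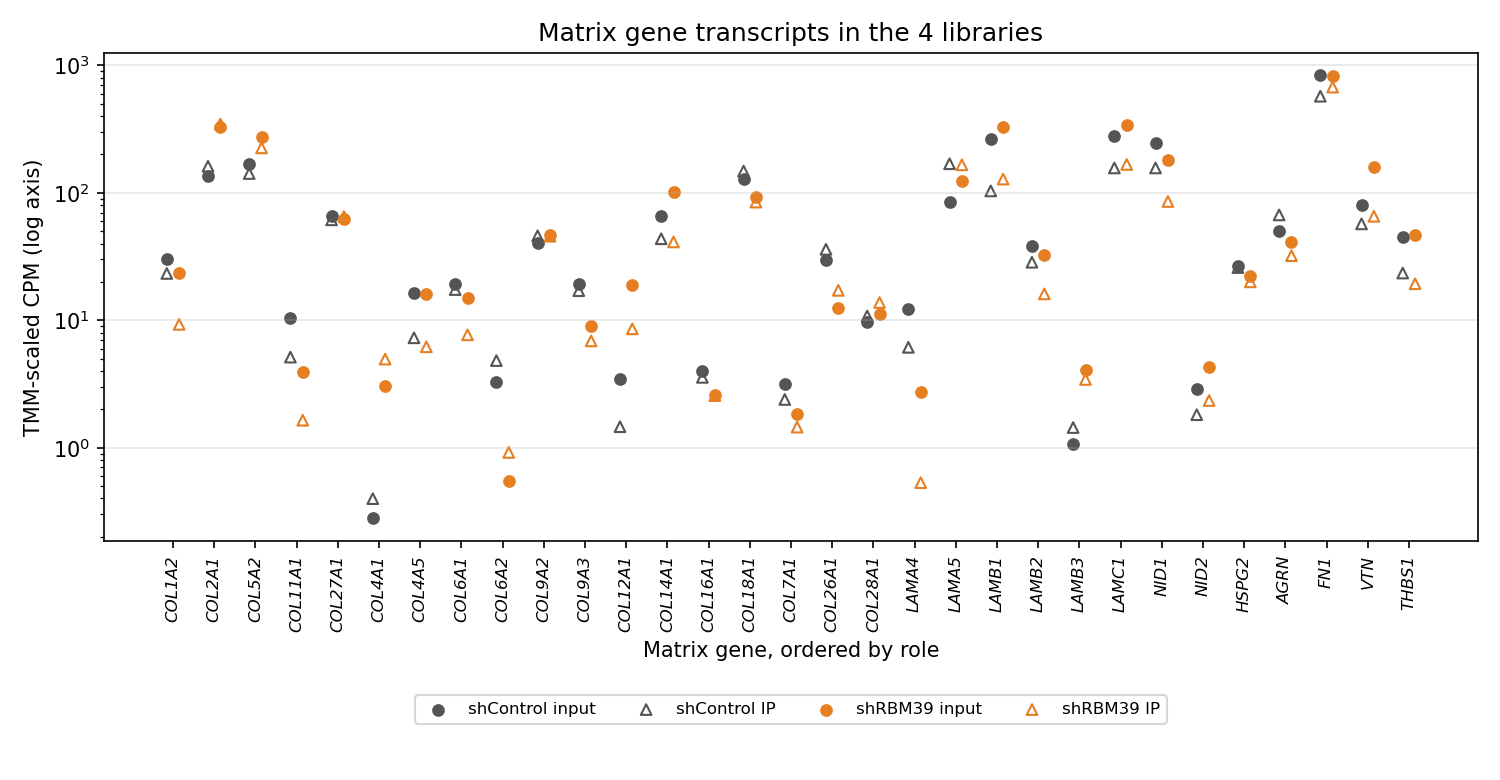
Level of the 31 matrix genes with at least 200 summed counts, in TMM-scaled CPM on a log axis, ordered by role; circles are inputs, triangles IPs, grey shControl and orange shRBM39, 1 library each. FN1 lies at 572 to 837 CPM, and COL4A1, COL12A1 and LAMB3 stand higher in both shRBM39 libraries than in both shControl libraries. Levels are not divided by transcript length, so heights are comparable within a gene and not between genes.

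The input libraries show which chains the cells carried. Of the fibrillar collagens, COL2A1, the chain of cartilage collagen, stood at 134, 161.5, 327 and 345 CPM. COL5A2, a chain of collagen V, stood at 167.5, 142, 275 and 225 CPM. Both were higher in the 2 shRBM39 libraries than in the 2 shControl libraries. COL27A1, a fibrillar collagen of developing cartilage, had nearly the same level throughout, with 65.9, 61.3, 62.2 and 64.97 CPM. The chains of collagen I, the main collagen of scar, differed in depth: COL1A1 had 6 to 58 counts per library, and COL1A2 had 384 to 1052.

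Several chains had counts while a partner they are known to assemble with had few or none. The annotation and the counting behind the table are not known, so a count near 0 need not mean that the transcript was absent. COL5A2 was deep while COL5A1 had 0, 2, 0 and 0 counts. COL4A1 had 6, 18, 66 and 205 counts while COL4A2 had 0, 0, 0 and 2. COL6A1 had 318 to 786 counts while COL6A3 had 0, 6, 0 and 0. COL9A2 and COL9A3 of the cartilage collagen IX were measured, with 873 to 2076 and 197 to 771 counts, while COL9A1 had 0, 2, 0 and 4. A count of 0 allows up to 0.139 CPM in one input and 0.138 in the other. LAMA1, TNC, COL8A1, COL13A1 and COL25A1 had 0 counts in every library.

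Of the laminins, LAMA5, LAMB1 and LAMC1, the chains of the widespread laminin-511, were the deepest alpha, beta and gamma chains, with 1813 to 7633, 4671 to 7143 and 5973 to 7403 counts per library. NID1 had 3536 to 7075 counts, NID2 62 to 97, HSPG2 483 to 1170 and AGRN 890 to 3029. FN1 held 26.2% to 30.7% of the matrix counts of a library. SPP1, the secreted phosphoprotein osteopontin, had 26 to 48 counts.

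The first comparison asked which matrix transcripts differed between the 2 cultures before immunoprecipitation. Of the 47 genes, 6 were higher and 7 lower in the shRBM39 input, where 5.10% of all compared features were higher and 5.74% lower. The 7 include COL4A4 and COL8A2, which were kept only through shControl, so their calls support nothing. The median log2 ratio was 0.05, beside -0.01 over all features, so the genes that differed lay on both sides. Scaled to total counts, the split of all features between the inputs moved from 979 higher and 1102 lower to 767 and 1304. COL4A1, a basement membrane chain, stood at 0.278 CPM in shControl and 3.04 in shRBM39 cells, 10.1 times higher (log2 3.34, 2.25 to 4.94). The ratio rested on 6 and 66 counts, and a count of 0 in the shControl input allows up to 0.139 CPM. COL12A1, a collagen on the surface of fibrils, stood at 3.43 and 19.0 CPM, 5.51 times higher (log2 2.46, 2.11 to 2.85). COL2A1 was 2.43 times higher (log2 1.28, 1.22 to 1.35). COL11A2, which joins collagen fibrils of cartilage, was also higher, by 1.39 (0.22 to 2.82) on 8 and 22 counts, and lost the call when counts were divided by 2.

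Of the laminin chains of epithelial anchorage, LAMB3 was higher in the shRBM39 input, at 1.07 and 4.09 CPM (log2 1.92, 1.26 to 2.67). LAMA3 stood at 1.21 and 0.736 CPM, with a log2 ratio of -0.70 (-1.71 to 0.24) that spans equality. VTN lay at the threshold without being called, at 79.9 and 159 CPM (log2 1.0, 0.91 to 1.08), and was called when features with any count were kept. COL5A2 at 0.72 (0.66 to 0.78), COL14A1, a collagen of fibril surfaces, at 0.64 (0.54 to 0.74) and LAMA5 at 0.54 (0.46 to 0.63) had intervals above 0 and stayed under 2-fold.

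On the other side, COL6A2 of the beaded filaments had 3.25 CPM in shControl and 0.552 in shRBM39 cells, 5.69 times lower (log2 -2.51, -3.58 to -1.66). LAMA4, an alpha chain known from vessel walls and mesenchymal cells, stood at 12.3 and 2.71 CPM, 4.52 times lower (log2 -2.18, -2.62 to -1.77). COL11A1 stood at 10.4 and 3.91 CPM (log2 -1.41, -1.80 to -1.05). COL26A1 stood at 29.7 and 12.5 CPM (log2 -1.24, -1.46 to -1.04). COL9A3 stood at 19.4 and 9.06 CPM (log2 -1.10, -1.35 to -0.85). COL4A4 (log2 -2.45, -5.90 to -0.57) and COL8A2 (log2 -2.34, -5.80 to -0.43) had 2 counts each in the shRBM39 input and lost the call when counts were divided by 2. Both passed the count minimum only through shControl, which favours a lower shRBM39 input, so these calls support nothing. Chains of one collagen thus stood apart for collagen VI, with COL6A2 lower while COL6A1 was at -0.35 (-0.56 to -0.14). COL11A1 was lower and COL11A2 higher, but the COL11A2 call rested on 8 and 22 counts and was lost when counts were divided by 2.

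Many transcripts changed little between the inputs. FN1 stood at 837 and 825.5 CPM (log2 -0.02, -0.05 to 0.01), THBS1, the adhesive protein thrombospondin 1, at 44.8 and 46.3 CPM (log2 0.05, -0.08 to 0.18), and COL4A5, a basement membrane chain, at 16.3 and 16.2 CPM (log2 -0.01, -0.23 to 0.20). LAMB1 at 0.32 (0.27 to 0.37) and LAMC1 at 0.30 (0.25 to 0.35) were slightly above equality. NID1 at -0.44 (-0.50 to -0.38), COL18A1, the source of endostatin, at -0.46 (-0.54 to -0.38) and COL1A2 at -0.36 (-0.53 to -0.19) were slightly below it. Of the hepatocyte markers, 0 of 12 were called in this comparison, with a median of -0.10.

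**Figure D2:**
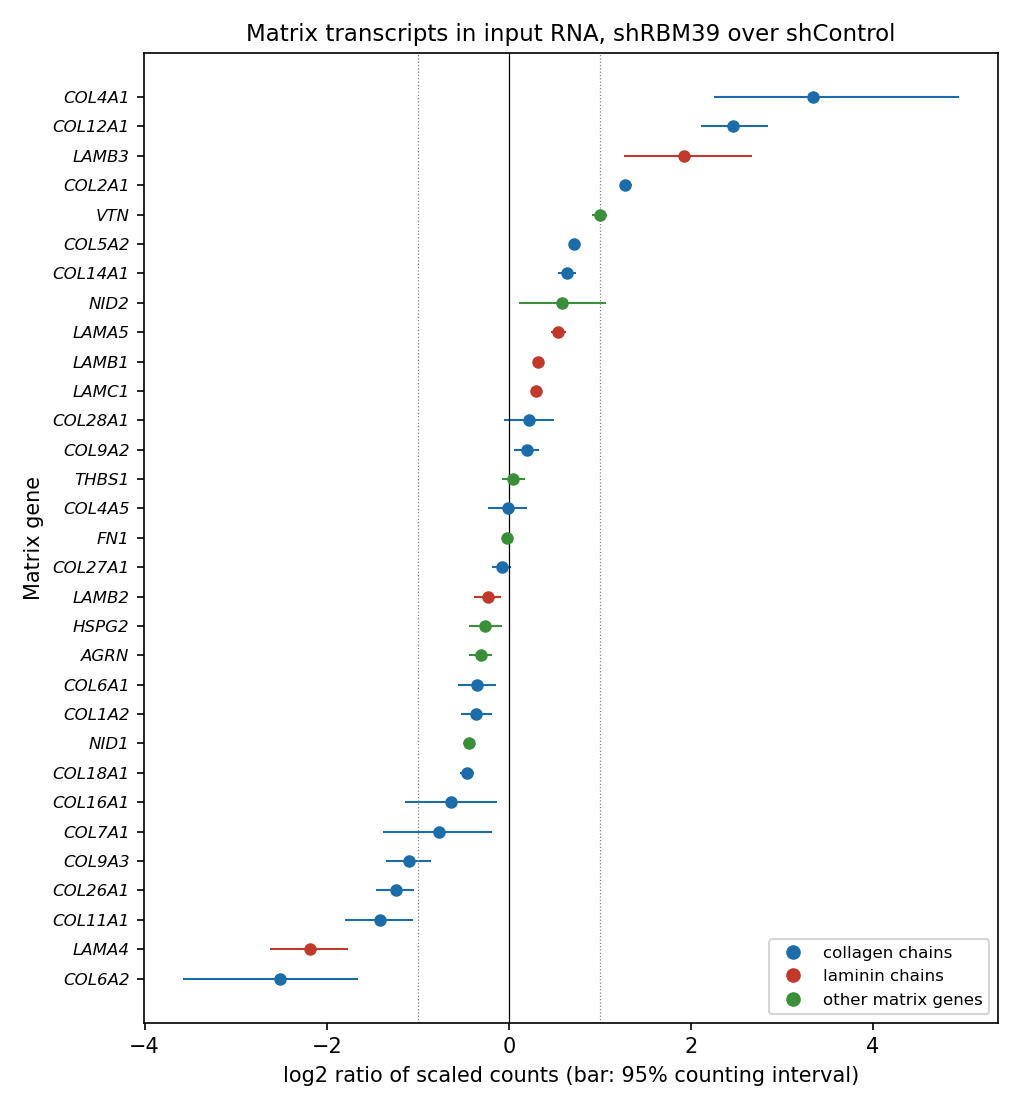
Log2 ratio of shRBM39 over shControl in input RNA for the 31 matrix genes with at least 200 summed counts, with 95% counting intervals; dotted lines mark 2-fold. COL4A1, COL12A1, LAMB3 and COL2A1 lie to the right of the upper line with 3.34, 2.46, 1.92 and 1.28, COL6A2, LAMA4, COL11A1, COL26A1 and COL9A3 to the left of the lower line, and FN1 and COL4A5 at 0.

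The sequences upstream of some genes with large input ratios are shown to place them beside these values. They come from RefSeq (GRCh38.p14), which held a promoter for 36 of the 47 genes. COL4A1 and COL4A2 are read in opposite directions from neighbouring starts on chromosome 13, and 126 bases, chr13:110307158-110307283, lie between them. These are printed on the strand of COL4A1 (minus), so that COL4A1 begins after the last base and COL4A2 before the first. For 3 other genes the 250 bases before the outermost RefSeq start are given: COL12A1 and LAMB3, higher in the shRBM39 input, and COL6A2, lower there. Capitals mark matches on either strand to 5 motifs, and no matches overlap in these 4 sequences, while some do in windows not printed. The GC box was searched as GGGCGG, the box of NF-Y factors as CCAAT and the box of the TATA-binding protein as TATAAA. The motif of AP-1 was searched as TGACTCA, and the motif of RFX factors, the family of RFX1 in the study's title, as GTTGCC.
COL4A1 and COL4A2, between the starts, chr13:110307158-110307283, minus: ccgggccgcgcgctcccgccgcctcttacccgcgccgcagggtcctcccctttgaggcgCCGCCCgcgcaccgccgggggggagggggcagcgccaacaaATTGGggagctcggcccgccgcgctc
COL12A1, chr6:75206054-75206303, minus: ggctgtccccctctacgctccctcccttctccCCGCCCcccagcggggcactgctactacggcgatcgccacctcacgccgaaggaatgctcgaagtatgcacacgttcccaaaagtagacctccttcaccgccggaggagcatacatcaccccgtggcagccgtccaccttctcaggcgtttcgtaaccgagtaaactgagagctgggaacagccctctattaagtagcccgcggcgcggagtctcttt
LAMB3, chr1:209652426-209652675, minus: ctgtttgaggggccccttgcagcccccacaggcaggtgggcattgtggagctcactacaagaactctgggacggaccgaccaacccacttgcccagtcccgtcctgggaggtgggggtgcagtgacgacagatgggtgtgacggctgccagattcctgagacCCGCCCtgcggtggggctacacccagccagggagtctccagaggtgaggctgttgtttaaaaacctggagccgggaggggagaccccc
COL6A2, chr21:46097862-46098111, plus: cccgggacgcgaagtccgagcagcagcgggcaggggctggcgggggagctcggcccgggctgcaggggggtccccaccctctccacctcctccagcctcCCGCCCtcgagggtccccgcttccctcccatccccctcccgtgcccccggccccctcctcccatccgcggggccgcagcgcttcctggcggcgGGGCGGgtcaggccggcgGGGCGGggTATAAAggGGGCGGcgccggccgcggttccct
The stretch between COL4A1 and COL4A2 is 80.2% G and C and holds 1 GC box and 1 CCAAT box. COL12A1 and LAMB3 hold 1 GC box each, and COL6A2 a TATA box among 4 GC boxes.

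Over the 36 upstream windows of 250 bases, 63.9% held a GC box, beside 42.3% of all 27305 RefSeq windows of that length. The 36 belong to compared genes, while the 27305 were not limited to compared features, so the sets are unlike. A CCAAT box was found in 33.3% (33.0% of all), a TATA box in 8.33% (11.1%), an AP-1 motif in 2.78% (4.16%) and the RFX motif in 13.9% (10.1%). The 5 matrix genes with the RFX motif were COL9A2, COL24A1, LAMC1, VTN and COL4A5. Their log2 ratios between the inputs were 0.20, 0.10, 0.30, 1.0 and -0.01, so the genes with the largest ratios were not among them. In 8 of the 36, LAMA4 and LAMA3 among them, the window belongs to an inner start and lies partly or wholly within the gene. The windows are not all of a promoter, and a match to these letters is a description and not a site.

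Further pairs of neighbouring genes could be compared between the inputs. COL4A6 and COL4A5 start 379 bases apart on the X chromosome and had log2 ratios of 0.10 (-0.60 to 0.81) and -0.01. COL3A1 and COL5A2 lie 19151 bases apart on chromosome 2, with 0.83 (-0.22 to 2.01) and 0.72. COL6A1 and COL6A2 lie 93063 bases apart on chromosome 21, with -0.35 and -2.51.

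The next comparison asked how far matrix transcripts were recovered with the RBM39 antibody, as the ratio of IP over input, in shControl cells. Of the 47 genes, 2 were higher and 8 lower in the IP, where 7.70% of all features were higher and 11.3% lower. The median was -0.17, beside -0.01 over all features. Families differed in their medians: 0.03 for the 30 collagen chains, -0.78 for the 9 laminin chains and -0.58 for the 8 other genes.

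LAMA5 stood apart from the other laminin chains. It had 84.1 and 169 CPM in shControl input and IP (log2 1.01, 0.93 to 1.08), and 123 and 166 CPM in the shRBM39 libraries (log2 0.43, 0.37 to 0.50). It was above its input in both cultures, and its call in shControl cells was lost with features of at least 50 counts in 2 libraries (0.97) and with totals that left out RN7SK, RN7SL and mitochondrial features (0.94). LAMB1 went the other way in both, with 262 CPM in the input and 103 in the IP of shControl cells (log2 -1.34, -1.40 to -1.29) and 328 and 128 CPM in shRBM39 cells (log2 -1.36, -1.41 to -1.31). LAMC1 stood at 277 and 157 CPM (log2 -0.82, -0.87 to -0.77) and at 340 and 167 CPM (log2 -1.03, -1.08 to -0.98). The 3 chains of laminin-511 were therefore recovered unequally, with the alpha chain above its input and the beta and gamma chains below theirs.

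Of the other laminins, LAMA4 was lower in the shControl IP (log2 -1.01, -1.26 to -0.76), a call lost with total counts (-0.93) and with features of any count kept (-0.92). LAMA3 was lower as well (log2 -1.18, -2.05 to -0.33) on 26 and 24 counts, and lost the call when counts were divided by 2. LAMB2, a beta chain of basement membranes, stood at 38.2 and 28.5 CPM (log2 -0.42, -0.55 to -0.29). LAMB3 at 0.41 (-0.28 to 1.18) could not be told from equality at this depth.

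Most collagens with deep counts lay near their input level in the shControl IP. The log2 ratio was 0.27 (0.20 to 0.33) for COL2A1, -0.24 (-0.30 to -0.18) for COL5A2, -0.10 (-0.20 to -0.01) for COL27A1 and 0.18 (0.07 to 0.30) for COL9A2. It was 0.28 (0.15 to 0.41) for COL26A1, 0.21 (0.15 to 0.27) for COL18A1 and -0.14 (-0.32 to 0.03) for COL6A1. The collagens called lower were COL12A1 (-1.23, -1.73 to -0.73), COL4A5 (-1.17, -1.39 to -0.94) and COL11A1 (-1.02, -1.29 to -0.75). To these come COL4A4 (-1.30, -2.61 to -0.03) and COL10A1 (-3.60, -7.06 to -1.75), of which COL10A1 had 14 counts in the input and 2 in the IP. COL10A1 was kept through the inputs, so its call supports nothing. COL11A1 lost its call with total counts (-0.95) and with features of any count kept (-0.93), and COL4A4 lost its call under both (-1.22 and -1.21) and when counts were divided by 2. COL3A1 was called higher (1.11, 0.24 to 2.19) on 12 and 56 counts, and lost that call when counts were divided by 2 and with a pseudocount of 5 (0.78).

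In the adhesive group, THBS1 stood at 44.8 CPM in the input and 23.5 in the IP of shControl cells (log2 -0.93, -1.06 to -0.81). FN1 stood at 837 and 572 CPM (log2 -0.55, -0.58 to -0.52) and VTN at 79.9 and 57.0 CPM (log2 -0.49, -0.57 to -0.40). NID1, the linker between laminin and collagen IV, was at -0.65 (-0.70 to -0.60), while HSPG2 was at -0.04 (-0.18 to 0.11) and AGRN above its input at 0.41 (0.31 to 0.51). None of these passed 2-fold in shControl cells.

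In shRBM39 cells more of the matrix genes were called lower in the IP. Of the 47, 0 were higher and 17 lower, where 5.29% of all features were higher and 9.0% lower. The 17 include COL10A1 and COL17A1, which passed the count minimum through inputs that favour a lower ratio, so their calls support nothing. The median was -0.35 (-0.32 over 46 genes without COL8A2, which had 0 counts in this IP), beside 0.02 over all features. Among the 31 genes with at least 200 summed counts 12 were lower, beside 5.99% of the 14483 features of that depth. Their median was -0.35, beside 0.07 over those features. Medians by family were -0.21 for collagens, -1.01 for laminins and -0.98 for the other genes. Hepatocyte markers lay low in the same IP, with 6 of 12 called lower and a median of -1.10, beside 1 of 12 and -0.30 in shControl cells, and their part in the result was not tested.

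COL1A2 stood at 23.5 CPM in input and 9.28 in the IP (log2 -1.34, -1.54 to -1.15). VTN stood at 159 and 65.4 CPM (log2 -1.28, -1.36 to -1.21), THBS1 at 46.3 and 19.3 CPM (log2 -1.26, -1.39 to -1.12) and COL14A1 at 102 and 41.1 CPM (log2 -1.30, -1.40 to -1.21). NID1 stood at 181 and 85.4 CPM (log2 -1.09, -1.15 to -1.02) and LAMB2 at 32.5 and 16.1 CPM (log2 -1.01, -1.17 to -0.86). These 2 and LAMC1 lay near the threshold and lost the call with features of any count kept, at -0.97, -0.89 and -0.91, as did COL10A1 (-1.37).

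LAMA4 had the lowest ratio of the genes with at least 200 summed counts, with 2.71 CPM in the input and 0.532 in the IP (log2 -2.33, -3.13 to -1.62). COL4A5 (-1.39, -1.63 to -1.15), COL11A1 (-1.25, -1.73 to -0.77) and COL12A1 (-1.15, -1.36 to -0.95) were lower here as in shControl cells. Genes of fewer counts called lower included SPP1 (-1.22), COL24A1 (-1.61), COL17A1 (-2.28) and COL10A1 (-1.48). The calls of COL17A1 and COL10A1 support nothing, as the shRBM39 input was among the libraries that let them pass the count minimum.

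The fibrillar COL2A1 and COL27A1 stayed at input level in this IP as well, with 0.08 (0.04 to 0.12) and 0.06 (-0.03 to 0.16). COL9A2 was at -0.03 (-0.14 to 0.09) and HSPG2 at -0.15 (-0.31 to 0.01). FN1 stood at 825.5 CPM in the input and 675 in the IP (log2 -0.29, -0.32 to -0.26). COL4A1, with 3.04 and 4.95 CPM, had a ratio of 0.70 (0.30 to 1.13), and COL26A1, with 12.5 and 17.2 CPM, one of 0.45 (0.25 to 0.66).

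Of the 8 genes lower in the shControl IP, 6 were also among the 17 lower in the shRBM39 IP: COL10A1, COL11A1, COL12A1, COL4A5, LAMA4 and LAMB1. That is 75% of the first list and 35.3% of the second, and over all features the shared part was 45.1% of the shControl and 56.6% of the shRBM39 list. The 8 include COL10A1, kept through the inputs, and COL4A4, kept through shControl, whose calls support nothing. COL10A1 is also among the 6 shared genes, and the 17 hold it and COL17A1, whose calls there support nothing either. The shares are a description only. Over the 31 genes with at least 200 summed counts the log2 ratios of the 2 cultures had a Pearson r of 0.84 and a Spearman rho of 0.85, beside 0.81 and 0.80 over all features of that depth. These are correlations across genes, which are not independent replicates, and they share depth and base composition between the cultures.

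**Figure D3:**
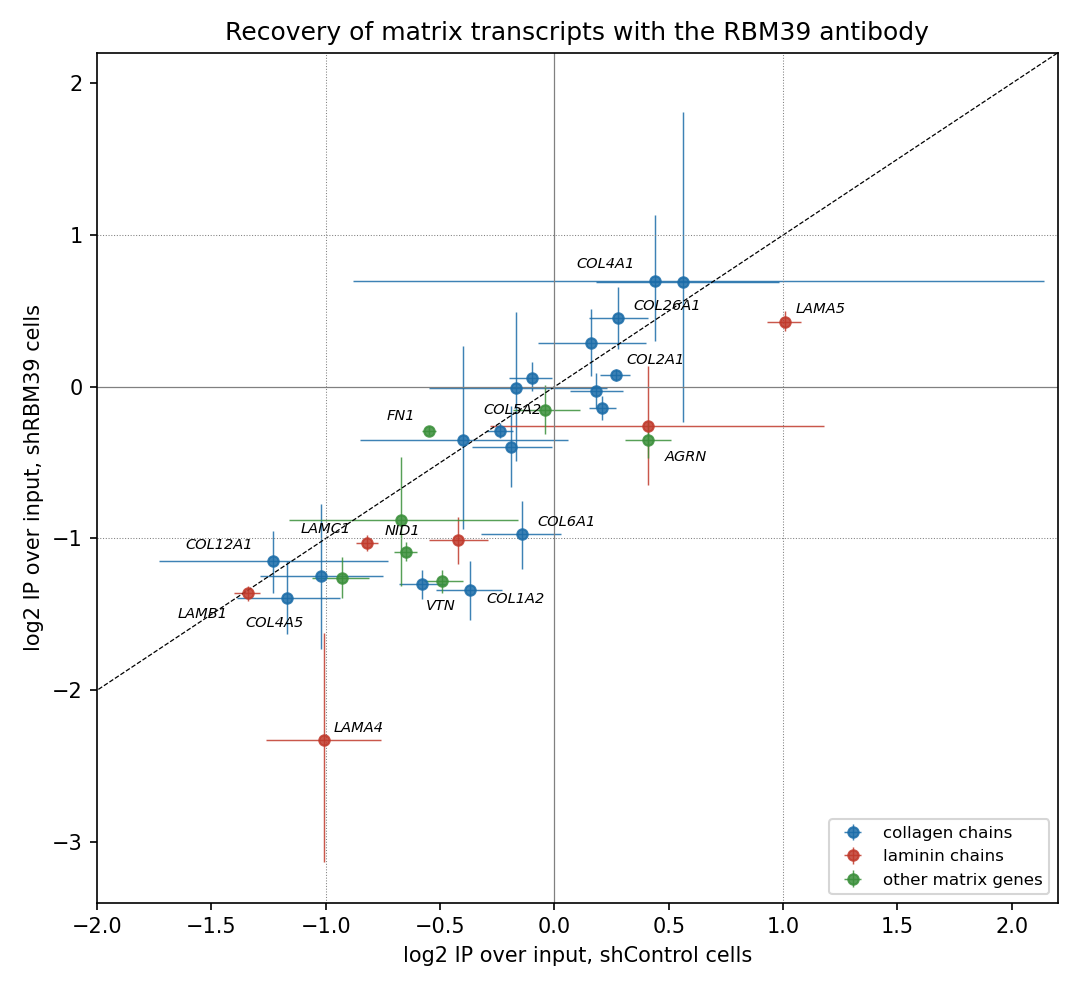
Log2 ratio of IP over input in shControl cells (horizontal) and in shRBM39 cells (vertical) for the 31 matrix genes with at least 200 summed counts, with 95% counting intervals; dotted lines mark 2-fold and the dashed line equal recovery. LAMB1, COL4A5 and COL12A1 lie at the lower left in both cultures, LAMA5 at the right with 1.01 and 0.43, and VTN, COL1A2 and COL6A1 below the dashed line.

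Across both cultures, IP was tested against input with edgeR's quasi-likelihood test with Benjamini-Hochberg adjustment over all features, in a model of culture plus fraction with 1 residual degree of freedom. Any true difference in recovery between the cultures counts as error there. At an adjusted p under 0.05, 1 of the 47 genes was higher and 15 were lower in the IP, where 19.2% of all features were higher and 17.6% lower. LAMA5 was the gene that rose, by 0.72 on the log2 scale (edgeR adjusted p = 0.0026). LAMB1 fell by 1.35 (edgeR adjusted p = 7.1e-06), THBS1 by 1.09 (2.1e-05) and COL4A5 by 1.27 (2.2e-05). COL12A1, COL14A1, LAMC1, LAMA4, NID1, VTN, COL11A1, COL1A2 and LAMB2 fell by 0.71 to 1.45, with edgeR adjusted p of 0.00017 to 0.0019. COL6A1 (edgeR adjusted p = 0.03) and NID2 (0.033) fell as well but did not pass in DESeq2. The 15 include COL10A1, which was kept through its input counts, so its test supports nothing. FN1 had a log2 ratio of -0.42 and did not pass (edgeR adjusted p = 0.11), nor did COL2A1 at 0.17 (0.46) or COL5A2 at -0.27 (0.22).

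Properties that the choice of genes did not use were set beside recovery as a description. Over the 24 genes with at least 200 summed counts and a RefSeq promoter, the G and C content of the 250 upstream bases and the log2 ratio of IP over input had a Pearson r of 0.33 in shControl cells and 0.38 in shRBM39 cells. Over all 9639 such features r was 0.11 and 0.12. Gene span (log2) had an r of -0.15 and 0.05 over the 31 matrix genes. Base composition of the transcripts themselves was not analysed here.

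The contrast between the cultures asked whether recovery differed, as the shRBM39 log2 ratio minus the shControl one. The comparison shares its libraries with those above. Of the 47 genes, 1 was higher and 3 lower past 2-fold, where 4.39% of all features were higher and 2.74% lower. The median was -0.22 beside 0.00 over all features, and -0.41 beside -0.20 with libraries scaled to total counts. That scaling also turned the split of all features in this contrast from 843 higher and 526 lower to 570 and 885. In the shRBM39 IP over input it moved the split from 1016 and 1729 to 715 and 2168. Of the 31 genes with at least 200 summed counts 9 lay above 0, beside 6855 of 14483 features of that depth.

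LAMA4 was the called gene with deeper counts. It stood at 12.3 and 6.13 CPM in the shControl input and IP and at 2.71 and 0.532 CPM in the shRBM39 ones, a difference of -1.32 (-2.06 to -0.58). COL24A1 (-1.80, -2.92 to -0.68) rested on 16 to 58 counts and COL17A1 (-2.16, -4.24 to -0.07) on 4 to 12, and COL17A1 lost the call when counts were divided by 2 and with a pseudocount of 5. COL17A1 also passed the count minimum only through the shControl IP and the shRBM39 input, so its call supports nothing. LAMA3 was higher (2.08, 0.96 to 3.20), with 1.21 and 0.531 CPM in shControl cells and 0.736 and 1.40 CPM in shRBM39 cells.

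Below 2-fold, intervals excluded equality for several deep genes. COL1A2 differed by -0.97 (-1.21 to -0.73), a value that passed 2-fold with total counts (-1.16). COL6A1 differed by -0.83 (-1.11 to -0.55), or -1.02 with total counts, VTN by -0.80 (-0.91 to -0.68), AGRN by -0.76 (-0.92 to -0.60), COL14A1 by -0.72 (-0.86 to -0.59) and LAMA5 by -0.57 (-0.67 to -0.47). FN1 differed by 0.26 (0.22 to 0.30), and by 0.07 with total counts. LAMB1 did not differ beyond its counting error (-0.02, -0.09 to 0.06), nor did COL5A2 (-0.05, -0.12 to 0.03).

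A lower ratio can come from a lower IP or from a higher input, and the genes were of both kinds. For VTN the IP level was 57.0 CPM in shControl and 65.4 in shRBM39 cells while the input went from 79.9 to 159 CPM. For COL14A1 the IP level was 43.6 and 41.1 CPM while the input went from 65.2 to 102 CPM. For COL1A2, in contrast, the IP level was 23.3 and 9.28 CPM with inputs of 30.2 and 23.5 CPM. AGRN likewise had 67.0 and 32.1 CPM in the IPs and 50.6 and 40.9 CPM in the inputs.

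**Figure D4:**
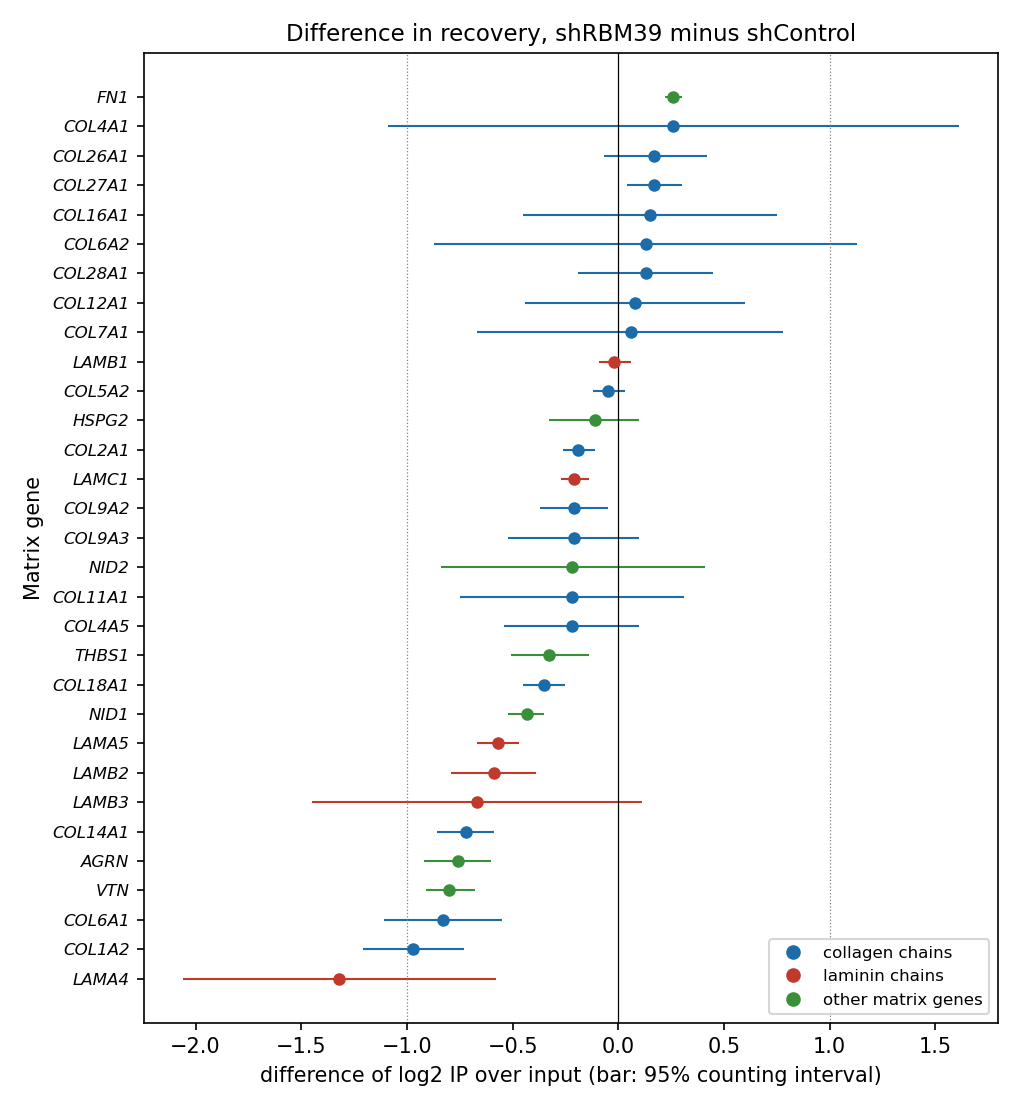
Difference of log2 IP over input, shRBM39 minus shControl, for the 31 matrix genes with at least 200 summed counts, with 95% counting intervals; dotted lines mark 2-fold. LAMA4 at -1.32 lies past the lower line, COL1A2, COL6A1, VTN, AGRN and COL14A1 lie between -0.97 and -0.72, and FN1 lies at 0.26.

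Set directly against each other, the 2 IPs showed 7 of the 47 genes higher and 11 lower in the shRBM39 IP, where 6.61% of all features were higher and 5.27% lower. COL4A1 (3.60, 2.94 to 4.42), COL12A1 (2.54, 2.17 to 2.95) and COL2A1 (1.10, 1.06 to 1.14) were higher here as in the inputs. LAMA4 (-3.5, -4.23 to -2.90), COL6A2 (-2.38, -2.93 to -1.89) and COL11A1 (-1.64, -2.06 to -1.25) were lower in both comparisons. COL1A2 (-1.33, -1.5 to -1.16), COL6A1 (-1.18, -1.37 to -0.99) and AGRN (-1.06, -1.16 to -0.97) were called in the IPs and not in the inputs. Among those lower, COL8A2 went from 36 counts to 0 between the IPs, at least 11-fold lower against a floor of 3 counts in that library. It passed the count minimum only through shControl, so this call supports nothing. With total counts, under which the split of all features went from 1269 higher and 1012 lower to 729 and 1913 and their median to -0.28, the genes higher numbered 3, with COL2A1 (0.82), LAMB3 (0.97) and COL11A2 (0.89) among those that dropped below 2-fold.

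Other genes of the matrix were taken from 5 lists of the proteins that make, link, cut, bind and regulate it, and up to 4 genes of each are named, by size of a called ratio among genes with at least 200 summed counts. In the list of collagen synthesis and secretion, 28 of 29 genes were compared. In shControl cells 1 was higher and 3 lower in the IP (median 0.02; 7.70% and 11.3% of all features), and in shRBM39 cells 1 was higher and 6 lower (median -0.29; 5.29% and 9.0%). PLOD2, a lysyl hydroxylase of collagen, stood at 186, 74.0, 174 and 51.1 CPM and was lower in both IPs (log2 -1.33, -1.40 to -1.27, and -1.77, -1.84 to -1.69). Between the inputs, 1 gene of the list was higher and 5 were lower (5.10% and 5.74%). FKBP10, a collagen chaperone, stood at 31.7, 34.7, 9.61 and 10.1 CPM, with an input ratio of -1.72 (-1.95 to -1.5). P3H4, which works in a complex that hydroxylates collagen lysines, stood at 18.3, 19.8, 4.92 and 5.63 CPM, with an input ratio of -1.89 (-2.22 to -1.59). Both lay near their input level in either IP, and they are neighbours on chromosome 17 with 1054 bases between them. P3H2, a prolyl 3-hydroxylase, went the other way, at 0.928, 1.99, 4.41 and 3.04 CPM (input ratio 2.22, 1.54 to 3.02).

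In the list of crosslinking and assembly, 27 of 36 genes were compared, with 4 higher and 2 lower in the shControl IP (7.70% and 11.3% of all features), 2 higher and 6 lower in the shRBM39 IP (5.29% and 9.0%), and 2 higher and 4 lower between the inputs (5.10% and 5.74%). Of those lower between the inputs, all but VCAN passed the count minimum only through shControl, so their calls support nothing. VCAN, the proteoglycan versican, stood at 31.3, 11.6, 14.4 and 3.67 CPM. It was lower in both IPs (log2 -1.43 and -1.97) and in the shRBM39 input (-1.12, -1.32 to -0.92). EFEMP1, a fibulin, stood at 9.56, 4.36, 12.7 and 3.0 CPM and was lower in both IPs (log2 -1.13 and -2.08). SPARC, a collagen-binding glycoprotein, was higher in the shRBM39 input (1.75, 1.14 to 2.43). FBN1, the fibrillin of elastic microfibrils, stood at 2.32, 1.55, 2.71 and 4.16 CPM, and its recovery differed by 1.19 (0.52 to 1.87) between the cultures.

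Of the proteases and inhibitors 27 of 36 were compared, with 4 higher and 2 lower in the shControl IP (7.70% and 11.3% of all features), 3 higher and 6 lower in the shRBM39 IP (5.29% and 9.0%), and 0 higher and 3 lower between the inputs (5.10% and 5.74%). The membrane metalloprotease MMP17 was higher in both IPs (1.69 and 1.05), and the protease inhibitor RECK was lower in both (-1.14 and -1.31). MMP16, another membrane metalloprotease, was lower in the shRBM39 IP (-1.25, -1.49 to -1.01) and input (-1.13, -1.33 to -0.93).

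Of the receptors other than integrins 20 of 24 were compared, with 0 higher and 2 lower in the shControl IP (7.70% and 11.3% of all features), 1 higher and 1 lower in the shRBM39 IP (5.29% and 9.0%), and 1 and 2 between the inputs (5.10% and 5.74%). CD47, a receptor of thrombospondin 1, was lower in both IPs (-1.80 and -1.76). The collagen receptor kinases differed, with DDR2 at -1.58 and -0.97 and DDR1 at 0.57 and 0.71, and DDR1 was lower between the inputs (-1.37, -1.89 to -0.89). BCAM, a receptor of LAMA5, stood at 150, 172, 78.0 and 65.4 CPM, with -0.95 (-1.03 to -0.86) between the inputs and -1.39 (-1.46 to -1.33) between the IPs.

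Of the transcription and TGF-beta list 24 of 25 were compared, with 3 higher and 2 lower in the shControl IP (7.70% and 11.3% of all features), 2 higher and 2 lower in the shRBM39 IP (5.29% and 9.0%), and 1 and 0 between the inputs (5.10% and 5.74%). RFX1, the transcription factor named in the study's title, stood at 3.25, 7.06, 2.53 and 7.66 CPM and was higher in both IPs (1.11, 0.74 to 1.51, and 1.59, 1.18 to 2.04). SP1, a factor that binds GC boxes, was higher in both as well (1.26 and 1.03), and the TGF-beta receptor TGFBR1 was lower in both (-1.19 and -1.27). ZEB1, a repressor of epithelial genes, was lower in the shControl IP (-1.30, -1.38 to -1.22) and at -0.47 (-0.54 to -0.40) in the other.

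Some matrix genes overlap other genes in RefSeq, and the strand setting of the counting is not given in the sources used here. FN1 overlaps ATIC, which had 1786 to 6652 counts, COL18A1 overlaps SLC19A1 (696 to 2122 counts), COL9A3 overlaps TCFL5 (724 to 1568 counts), COL10A1 overlaps NT5DC1 (357 to 886 counts) and COL4A4 overlaps RHBDD1 (216 to 422 counts). The values of these matrix genes are uncertain to the extent that reads were shared.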

How the data were processed

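The authors deposited raw counts per gene symbol for 4 libraries, as whole numbers with no normalization. The submitters' processing notes name hg38 and the tools cutadapt (1.9), HISAT2 (2.0.4) and StringTie (1.3.4d). For their roles, the counting of reads per gene and strand, and the gene models, the answer is: not given in the sources used here. Of counts from 3 to 6, 71.4% to 75.6% were even, a pattern that mates counted singly would give and under which counting intervals are too narrow.

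Features were kept at 10 or more counts in 2 or more libraries. Libraries were scaled by TMM (edgeR 4.0.16, R 4.3.3; factors 1.03, 1.09, 0.979 and 0.904). Ratios used a pseudocount of 0.5 and exact conditional (Clopper-Pearson) 95% intervals, and differences of ratios the counting standard error. The edgeR quasi-likelihood test was fitted on all features, with DESeq2 1.42.0 as the alternative. Both steps were tested on simulated data. Any matrix gene may be named, with full values for those of at least 200 summed counts and others where called; of other genes, up to 4 per list by size of a called ratio, also with at least 200 summed counts. Genes, lists and tests were chosen with earlier results of these data known. The sources used name no molecular identifiers, so reads need not be separate molecules. Some genes that the counts include are not reported here by name.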

Additional observations from a re-analysis of the deposited data

Results flagged for a closer look

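For 3 matrix genes the 2 cultures, as scaled above, went opposite ways in IP over input, with each counting interval on its own side of equality. AGRN was above its input in shControl cells (log2 0.41) and below it in shRBM39 cells (-0.35), a difference of -0.76. COL18A1 was at 0.21 and -0.14 (-0.22 to -0.06), a difference of -0.35. In the same shRBM39 comparison LAMC1 moved from -1.03 to -0.91 when features with any count were kept. That scaling moves every gene by the same amount, which carries the COL18A1 interval across equality, so its opposite direction depends on the scaling. LAMA3 was at -1.18 and 0.90 (0.11 to 1.83), a difference of 2.08, on 16 to 58 counts per library. Its shControl call was lost when counts were divided by 2. With 1 library per group these differences were not tested against the spread between cultures. COL18A1 overlaps SLC19A1, and the part of shared reads was not tested.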

How the results depend on the processing

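Scaled to total counts, 5 matrix genes were lower in the shControl IP (8 by TMM), 5 were lower in the difference of recovery (3) and 3 were higher between the IPs (7). With totals that left out RN7SK, RN7SL and mitochondrial features, 1 gene was higher in the shControl IP (2) and 3 were higher between the IPs. With all features of any count kept, 1 gene was higher in the shRBM39 IP (0) and 2 were higher in the edgeR test over both cultures (1). With at least 50 counts in 2 libraries required, 5 were lower in the shControl IP and 0 were higher in the difference (1), since COL4A4, COL10A1 and LAMA3 were no longer compared, and 1 was higher in the shControl IP, since LAMA5 fell below 2-fold. With a pseudocount of 5, and with counts divided by 2, 1 was higher in the shControl IP. The other counts stayed within 1.5 times, and DESeq2 size factors changed no call of the named genes. The cause of the other changes was not tested. The edgeR test already pairs input and IP by culture; no other pairing could be made with 1 library per group. Intervals are wide for the 16 genes under 200 summed counts, and a fold near 2 depends on scaling, as the calls of LAMA5, COL11A1 and COL2A1 show.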
